A study of Mus musculus with 15 samples.

Results

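The genes described here are 10 members of the WNT and R-spondin pathway, measured in adrenal glands of mice before, at the end of, and after treatment with dexamethasone. They are the ligand Wnt4, the R-spondins Rspo1 and Rspo3, the R-spondin receptor Lgr5, the ubiquitin ligases Znrf3 and Rnf43, the intracellular components Ctnnb1, Apc and Axin2, and the nuclear factor Lef1. They were chosen by symbol, with earlier results of these data known, and every probe set annotated to 1 of these symbols was taken. All 10 were on the array, with 11 probe sets, of 22399 probe sets for 21439 genes with a single symbol. Axin2 had 2 probe sets, and the brighter one was tested.

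RNA came from adrenal glands of male wild-type C57BL/6J mice, and an age of 6 weeks is given for all groups. The 4 control samples were collected before any dexamethasone. The 3 withdrawal samples were collected at the end of 14 days of dexamethasone, given in the drinking water, and the others 3 days (4 samples) and 7 days (4 samples) after it was stopped. Each sample is titled as a biological replicate, and whether glands or animals were pooled is not given in the sources used here. Dexamethasone, a synthetic glucocorticoid, shuts down ACTH release from the pituitary, and without ACTH the zona fasciculata, where corticosterone is made, shrinks. The stated purpose of the series was to follow the gland as it regenerates. Controls preceded treatment, so that treatment, recovery and elapsed days cannot be told apart in any comparison with control.

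In the canonical WNT pathway, a ligand bound to frizzled and LRP receptors stops the APC and AXIN complex from destroying beta-catenin, which then works with LEF and TCF factors in the nucleus to switch on target genes. R-spondins bind LGR receptors and neutralise ZNRF3 and RNF43, ligases that otherwise clear frizzled receptors from the cell surface, so that more receptor is left to answer WNT. Axin2, Lgr5, Znrf3, Rnf43 and Lef1 are themselves common targets of the pathway. In the mouse adrenal cortex, cells of the capsule make RSPO3 and cells of the zona glomerulosa, the outermost cortical layer, make WNT4.

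Each value is a log2 expression level made with robust multi-array average (RMA), and a level is not compared between genes, whose probes differ. The 15 arrays had medians of 1.55 to 1.64, correlations within groups of 0.986 to 0.993 and 0 identical pairs. The median level over all genes was 2.44. The number of arrays limits the precision. The p-values set a difference against the spread of these samples within groups, estimated with information from all genes. Zona fasciculata, zona glomerulosa, capsule and medulla marker lists had mean levels of 4.83 or more on every array, though single members were near the floor, and the 7 kidney markers averaged 1.23 in control. The tissue was a whole gland, so these data do not place any transcript in the outer cortex, and in such bulk RNA more cells of a type and more RNA per cell cannot be told apart.

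At withdrawal, Axin2, Lgr5 and Wnt4 rose above control, and the other 7 genes did not pass the test. The count was 3 higher and 0 lower of 10, where 4.3% of all genes were called, 2.49% higher and 1.81% lower (limma, adjusted p under 0.05). The median difference of the 10 genes was 0.32, beside -0.01 over all genes. Groups did not overlap for 6 genes that were higher and 1 that was lower, beside 8.15% and 6.94% of all genes. For Rnf43, among the higher, and Ctnnb1, the lower, the nearest samples were equal after rounding, at 2.82 and 8.38.

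Axin2 encodes a scaffold of the complex that destroys beta-catenin and is a widely used readout of WNT signalling, because the pathway switches it on. Its log2 level in the control samples was 5.13, 5.58, 5.25 and 5.20. At withdrawal the level was 6.77, 6.40 and 6.57. Every withdrawal sample lay above every other sample of the series, of which the highest was 6.07 at day 3. The difference from control was 1.29 ± 0.16 (SE), or 2.45-fold, with a 95% interval of 0.94 to 1.64 (adjusted p = 0.000361). This passed in each of 15 fits that left out 1 sample, where it ran from 1.20 to 1.39. The second Axin2 probe set read 3.17, 3.38, 2.98 and 3.34 in control and 3.89, 3.39 and 4.33 at withdrawal. It moved the same way without passing, by 0.65 ± 0.18 (adjusted p = 0.0593, over all probe sets).

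Lgr5 encodes a receptor for R-spondins and marks stem cells in several epithelia. In control its level was 6.73, 6.46, 7.01 and 6.74, and at withdrawal it was 7.60, 7.60 and 7.54. The withdrawal samples were closely grouped and above every sample of the other groups. Lgr5 rose by 0.84 ± 0.15, or 1.79-fold, with an interval of 0.52 to 1.17 (adjusted p = 0.00559). The call held in each of the 15 fits that left out 1 sample, with a highest adjusted p of 0.0291.

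Wnt4 encodes the WNT ligand of the glomerulosa. Its level was 7.22, 6.69, 6.97 and 6.95 in control and 7.69, 7.73 and 7.34 at withdrawal, with no overlap. The rise was 0.63 ± 0.15, or 1.55-fold, with an interval of 0.30 to 0.95 (adjusted p = 0.0298). This call was close to the threshold. It was lost without withdrawal replicate 1 (adjusted p = 0.102) or 2 (0.13) and without control replicate 2 (0.074), 3 (0.0603) or 4 (0.0628), while the difference stayed between 0.54 and 0.75. It was also lost with each array centred on its median (0.52, adjusted p = 0.0569) and with the arrays of the 2 groups alone (0.0776).

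**Figure D1:**
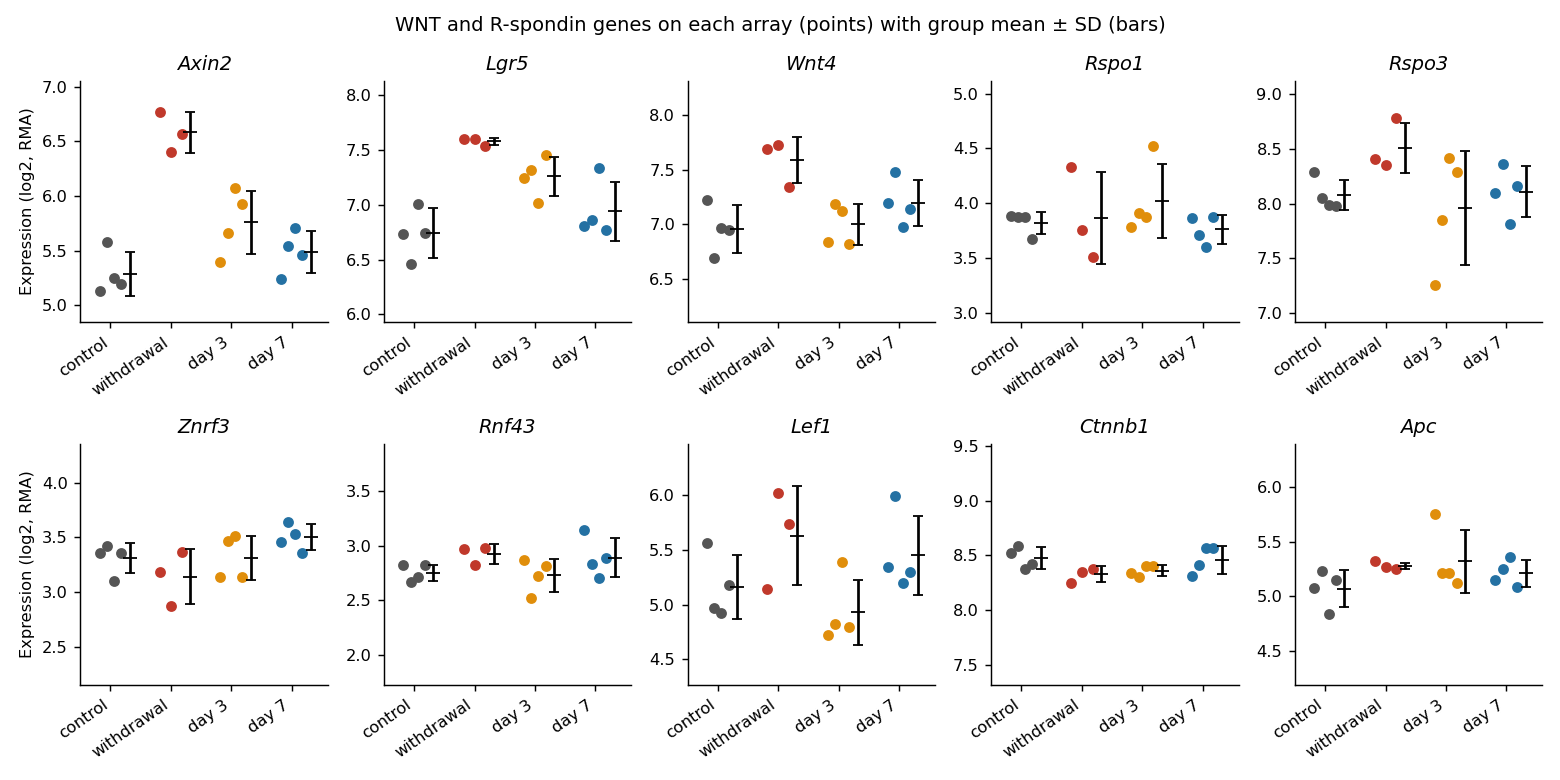
Log2 RMA level of each of the 10 genes (vertical axes, 1 panel a gene, each spanning the same number of log2 units) in control, withdrawal, day 3 and day 7 samples, with points for arrays and bars for the group mean ± SD. Axin2 and Lgr5 stand apart at withdrawal, at 6.58 ± 0.19 and 7.58 ± 0.03 (n = 3), and the points of Ctnnb1 lie within 8.25 to 8.59 in all groups.

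The remaining 7 genes did not pass at withdrawal. Rspo3, the R-spondin of the capsule, was at 8.29, 8.05, 7.99 and 7.98 in control and at 8.41, 8.35 and 8.78 at withdrawal. The groups did not overlap, but the difference of 0.44 ± 0.22 missed the threshold (adjusted p = 0.343). Rspo1, a second R-spondin, was at 3.82 ± 0.10 (SD, n = 4) in control and 3.86 ± 0.42 (n = 3) at withdrawal. Its 95% interval for the difference was -0.36 to 0.44.

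The ligases went in opposite directions by small amounts. Znrf3 differed from control by -0.17 ± 0.14 (adjusted p = 0.59) and Rnf43 by 0.17 ± 0.11 (adjusted p = 0.50). Both genes were dim, at 3.31 ± 0.14 and 2.75 ± 0.07 in control, not far above the median of all genes. Lef1, the nuclear partner of beta-catenin, was at 5.56, 4.97, 4.92 and 5.18 in control and 5.14, 6.02 and 5.74 at withdrawal. These groups overlapped, and the difference was 0.48 ± 0.24 (adjusted p = 0.332). Ctnnb1, which encodes beta-catenin itself, was at 8.48 ± 0.10 in control and 8.33 ± 0.07 at withdrawal. The withdrawal samples all lay below the controls, though the nearest pair both read 8.38 after rounding. The difference of -0.15 ± 0.09 did not pass (adjusted p = 0.44), with an interval of -0.35 to 0.04. Apc, the scaffold that beta-catenin destruction needs, differed by 0.21 ± 0.14 (adjusted p = 0.497).

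Promoter windows of the RefSeq annotation (GRCm38.p6) were read for the genes of this list, 250 bases before each start. The table matched 6 of the 10 genes with 11 windows: Axin2, Wnt4, Rspo1, Rnf43, Lef1 and Ctnnb1, and not Lgr5, Rspo3, Znrf3 or Apc. The windows of Axin2 and Wnt4 are shown because these genes rose, and 1 window of Lef1 because it held the motif searched. That motif is the core that LEF and TCF factors bind, spelled CTTTGAA, and the variants searched were CTTTGAT, then CTTTGTA, and lastly CTTTGTT, each on either strand. Axin2 at chr11:108920099-108920348, Wnt4 at chr4:137277385-137277634 and Lef1 at chr3:131156044-131156293 are all on the plus strand and end at the base before the start. They are written 5′ to 3′ in lower case, with a motif match in capitals.
Axin2: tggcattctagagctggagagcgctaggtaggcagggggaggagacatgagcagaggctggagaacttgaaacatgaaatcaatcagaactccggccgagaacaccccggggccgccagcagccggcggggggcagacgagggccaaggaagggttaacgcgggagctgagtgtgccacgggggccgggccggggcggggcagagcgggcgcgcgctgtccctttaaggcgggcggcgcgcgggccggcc
Wnt4: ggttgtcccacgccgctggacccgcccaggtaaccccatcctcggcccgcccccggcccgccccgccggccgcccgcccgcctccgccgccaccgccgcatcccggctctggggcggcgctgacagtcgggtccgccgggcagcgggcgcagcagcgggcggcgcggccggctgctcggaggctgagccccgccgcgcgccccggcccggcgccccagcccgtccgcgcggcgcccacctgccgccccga
Lef1: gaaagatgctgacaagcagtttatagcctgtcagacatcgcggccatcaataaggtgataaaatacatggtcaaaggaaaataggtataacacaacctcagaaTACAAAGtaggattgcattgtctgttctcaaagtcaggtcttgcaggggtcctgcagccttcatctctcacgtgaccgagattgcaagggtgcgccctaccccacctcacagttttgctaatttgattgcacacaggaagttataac

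The Axin2 window had a GC content of 69.2% and the Wnt4 window of 85.2%, beside a median of 52.4% over 32851 windows of 27025 genes. Neither holds a match. The Lef1 window shown, at 44.8% GC, is that of start site 4 of this gene in order along the chromosome. It holds TACAAAG, which is CTTTGTA on the other strand, 147 bases before that start. That was the single match in the 11 windows, and the windows of Lef1 start sites 1, 2 and 3 hold none. Over all windows of this length, 14.8% hold a match. A match describes letters and not a bound site, and its lack says that these letters are not in this window.

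By 3 days after withdrawal, Axin2 had fallen back and the other 9 genes did not pass. This was 0 higher and 1 lower of 10, where 2.25% of all genes were called, 1.37% higher and 0.886% lower. Day 3 samples lay entirely below withdrawal samples for 3 genes, Axin2, Lgr5 and Wnt4, beside 5.73% of all genes. The median difference was -0.26 over the 10 genes and -0.01 over all genes.

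Axin2 at day 3 read 5.40, 5.66, 6.07 and 5.93, between the withdrawal and control levels. The fall from withdrawal was -0.82 ± 0.16, or 1.77-fold, with an interval of -1.17 to -0.47 (adjusted p = 0.016). It was lost without withdrawal replicate 1 (-0.73, adjusted p = 0.0743) or 3 (-0.83, adjusted p = 0.0506), and with the arrays of the 2 groups alone (0.0827). The second Axin2 probe set differed by -0.43 ± 0.18, which did not pass (adjusted p = 0.293). Against control the day 3 level was still 0.47 ± 0.15 higher, which missed the threshold (adjusted p = 0.272).

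Wnt4 read 6.84, 7.19, 7.12 and 6.82 at day 3, below all 3 withdrawal samples and among the controls. Its difference of -0.59 ± 0.15 from withdrawal missed the threshold (adjusted p = 0.0592) and passed after quantile normalization (-0.60, adjusted p = 0.049), and from control it was 0.04 ± 0.14 with an interval of -0.26 to 0.34. Lgr5 was in between at day 3, with 7.24, 7.32, 7.02 and 7.45. Each of these lay below the withdrawal samples and above the controls, the nearest pair being 7.02 and 7.01. Neither difference passed, at -0.32 ± 0.15 against withdrawal (adjusted p = 0.362) and 0.52 ± 0.14 against control (adjusted p = 0.175).

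Rspo3 and Lef1 had their lowest group means at day 3. Rspo3 spread from 7.26 to 8.42 there, the widest range of any group for this gene, and differed from withdrawal by -0.56 ± 0.22 (adjusted p = 0.261). Lef1 was at 4.72, 4.82, 5.39 and 4.80, and differed by -0.70 ± 0.24 (adjusted p = 0.168). A single sample, at 5.39, overlapped the withdrawal range of Lef1. Rspo1, Znrf3, Rnf43, Ctnnb1 and Apc differed by 0.16, 0.17, -0.20, 0.03 and 0.04 log2 between day 3 and withdrawal, with adjusted p from 0.484 to 0.95.

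By 7 days, Axin2 and Lgr5 were lower than at withdrawal, and no gene of the 10 was called against control. The count against withdrawal was 0 higher and 2 lower, where 1.88% of all genes were called, 0.98% higher and 0.905% lower. For both of these genes, and no other of the 10, the groups did not overlap in that direction, beside 5.89% of all genes. The median of the 10 genes was -0.14, beside 0 over all genes.

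Axin2 at day 7 was 5.24, 5.54, 5.71 and 5.46, within or just above the control range. The difference from withdrawal was -1.10 ± 0.16, or 2.14-fold, with an interval of -1.45 to -0.75 (adjusted p = 0.00282). On the second Axin2 probe set the difference was -0.59 ± 0.18 and did not pass (adjusted p = 0.13).

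Lgr5 at day 7 was 6.81, 6.86, 7.34 and 6.77, with the third sample well above the others but still under the withdrawal samples. Its fall was -0.64 ± 0.15, or 1.56-fold (adjusted p = 0.046).

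That Lgr5 call rested on little margin. It passed in 4 of 15 fits that left out 1 sample, those without day 3 replicate 3, day 7 replicate 3, control replicate 2 or control replicate 3. In the other 11 fits the adjusted p ran from 0.0531, without day 3 replicate 4, to 0.139, without withdrawal replicate 2, with differences between -0.66 and -0.58. It was also lost with each array centred on its median (-0.56, adjusted p = 0.0598) and with the arrays of these 2 groups alone (-0.64, adjusted p = 0.102).

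Wnt4 had a day 7 level of 7.20, 7.48, 6.98 and 7.14, which overlapped both withdrawal and control. Its difference from withdrawal was -0.38 ± 0.15 (adjusted p = 0.26). Znrf3, the ligase, had its highest group mean at day 7, at 3.46, 3.64, 3.53 and 3.36, with a difference of 0.36 ± 0.14 from withdrawal (adjusted p = 0.236). Lef1 came back up to 5.34, 5.99, 5.20 and 5.30. It was 0.52 ± 0.22 above day 3, which did not pass (adjusted p = 0.654). The remaining genes of the 10 differed from withdrawal by between -0.41 (Rspo3) and 0.14 (Ctnnb1), with adjusted p of 0.471 or more.

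**Figure D2:**
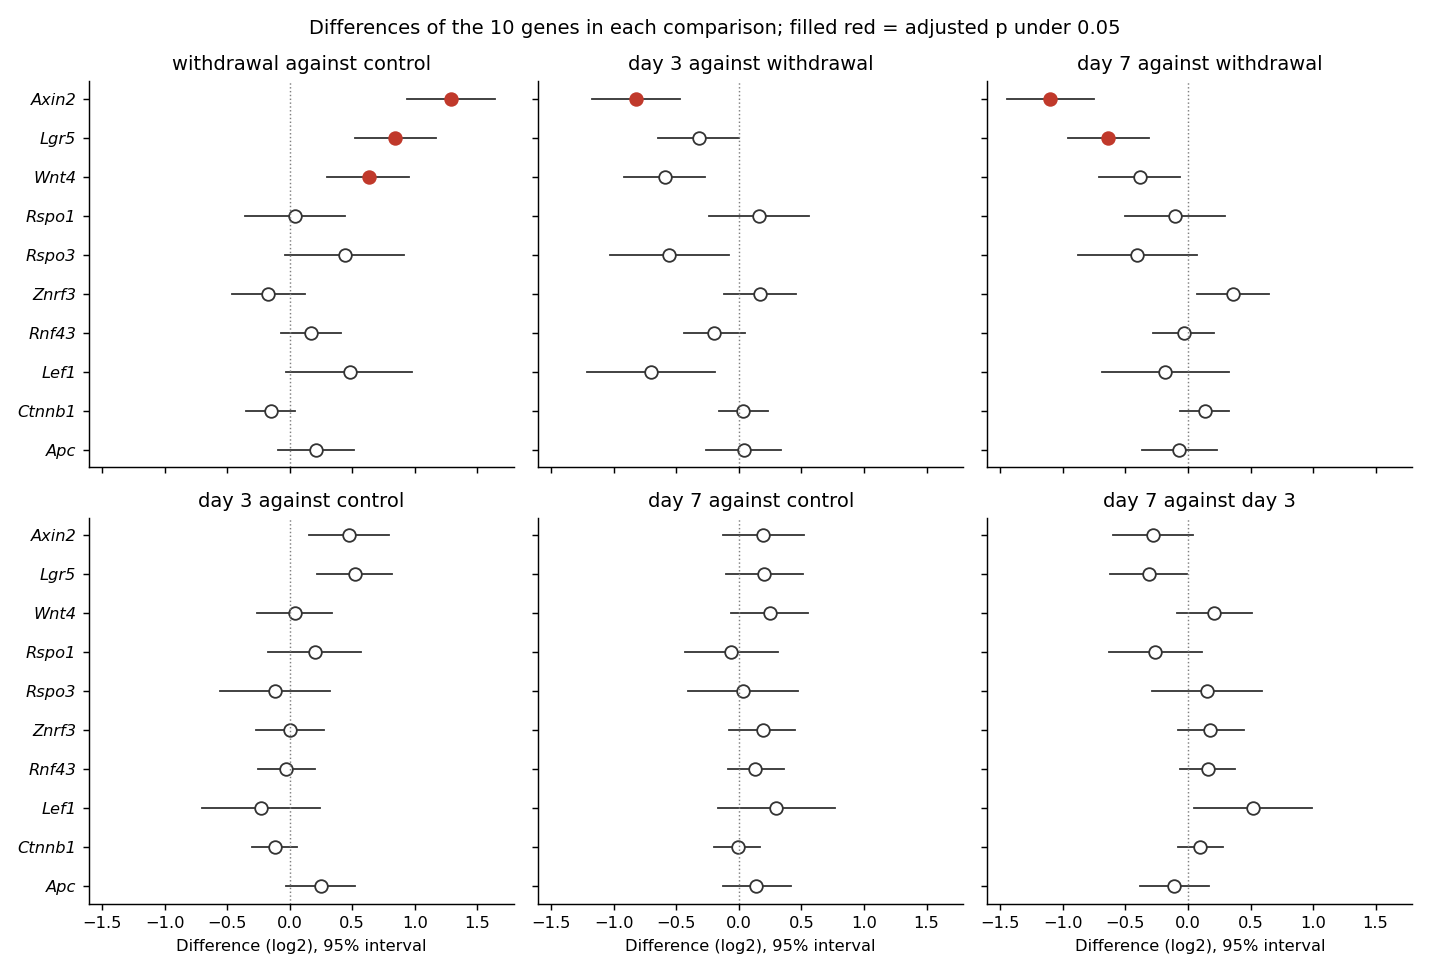
Difference in log2 RMA level (horizontal axis, point with 95% interval) for each of the 10 genes (vertical axis) in 6 comparisons, filled red where the limma adjusted p was under 0.05. The called differences are Axin2, Lgr5 and Wnt4 at withdrawal against control, Axin2 at day 3 against withdrawal, and Axin2 and Lgr5 at day 7 against withdrawal.

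Against control, 0 of the 10 genes passed in limma at day 3 or day 7, and 0 passed between the recovery days. Few genes of any kind did: 0.131% at day 3, 0.0187% at day 7 and 0% between day 7 and day 3. At an unadjusted p under 0.05, 2 of the 10 differed at day 3 from control, 0 at day 7 from control and 2 between the recovery days, beside 10%, 5.95% and 7.07% of all genes. The 2 at day 3 against control were Axin2 and Lgr5, and Lgr5 was the 1 gene whose day 3 samples all lay above control, beside 2.75% of all genes. At day 7 the differences from control were 0.19 ± 0.15 for Axin2, 0.20 ± 0.14 for Lgr5 and 0.25 ± 0.14 for Wnt4. Their intervals, -0.13 to 0.52, -0.10 to 0.51 and -0.06 to 0.55, do not show a full return, since each still allows a level above control. Withdrawal samples serve in 3 of the comparisons and control samples in 3, so the comparisons are not independent.

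Over the 4 groups together, 2 of the 10 genes passed limma's F test, beside 2.63% of all genes. They were Axin2 (F = 23.3, adjusted p = 0.00219) and Lgr5 (F = 11.9, adjusted p = 0.0214). Wnt4 came next (adjusted p = 0.0904), followed by Lef1 (0.299) and the others at 0.473 to 0.792. In order of group means, Axin2 went from 6.58 at withdrawal to 5.76 at day 3, 5.49 at day 7 and 5.29 in control. Of these neighbours, the first pair differed by the test, while day 3 and day 7 (adjusted p = 0.752) and day 7 and control (adjusted p = 0.924) did not pass. Lgr5 had the same order, 7.58, 7.26, 6.94 and 6.74, and no neighbouring pair passed. Wnt4 was ordered differently, with 7.59 at withdrawal, 7.20 at day 7, 7.00 at day 3 and 6.96 in control, again with no neighbouring pair past the threshold.

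The rest of the pathway was taken from a list of 91 WNT genes by role, of which 89 were measured. Gsk3a and Tcf7 were not among the measured genes. Beside the 10 genes, 79 were measured and 48 of them had a mean level of at least 2. At withdrawal against control 2 rose (Wls and Sostdc1), 1 fell (Lrp5) and 76 did not pass, with a median difference of 0.05. That is 3.8% of the 79, near the 4.3% of all genes. Day 3 against withdrawal gave 1 higher (Lrp5) and 1 lower (Ror1), with a median of -0.08 (2.53% called, beside 2.25% of all genes). Day 7 against withdrawal gave 0 higher and 2 lower (Ror1 and Sostdc1), with a median of -0.04 (2.53%, beside 1.88%). Limma called 0 of these genes in the other 3 comparisons.

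Wls carries WNT ligands to the cell surface. It was at 6.99, 7.05, 6.69 and 6.92 in control and at 7.30, 7.37 and 7.40 at withdrawal, with no overlap. The rise was 0.44 ± 0.09, or 1.36-fold (adjusted p = 0.0128), and it was lost without withdrawal replicate 2 (adjusted p = 0.0525), with each array centred on its median (0.0523) and with the arrays of these 2 groups alone (0.0896). All day 3 samples (7.17 to 7.29) and day 7 samples (7.08 to 7.20) also lay above the controls, though neither comparison passed (adjusted p = 0.196 and 0.77).

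Lrp5, a co-receptor that joins frizzled in binding WNT, moved the other way. Its control level was 7.37, 6.89, 7.36 and 7.49, and its withdrawal level was 6.61, 6.32 and 6.47. The fall was -0.81 ± 0.13, or 1.75-fold (adjusted p = 0.00317), and it passed in every fit that left out 1 sample. At day 3 Lrp5 read 6.92, 7.23, 7.17 and 6.99, a rise from withdrawal of 0.61 ± 0.13, or 1.52-fold (adjusted p = 0.0275). That rise was lost without withdrawal replicate 2 (adjusted p = 0.128) or 3 (0.0749), or without day 3 replicate 2 (0.0733) or 3 (0.068), and with the arrays of the 2 groups alone (0.0699). At day 7 it was 0.53 ± 0.13 above withdrawal (adjusted p = 0.0602).

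Ror1, a receptor for WNT5A that works outside the beta-catenin branch, was at 4.49, 4.19 and 4.86 at withdrawal. It was at 3.91, 3.43, 3.96 and 3.55 at day 3 and at 3.85, 3.49, 3.66 and 3.91 at day 7. The falls from withdrawal were -0.80 ± 0.17 (adjusted p = 0.0208) and -0.79 ± 0.17 (adjusted p = 0.0255), while withdrawal against control did not pass (0.53 ± 0.17, adjusted p = 0.0951). Leaving out withdrawal replicate 3, the highest sample, gave -0.63 (adjusted p = 0.0896) at day 3 and -0.62 (adjusted p = 0.0993) at day 7. The day 3 call was also lost without withdrawal replicate 1 (0.0595) or day 3 replicate 2 (0.0553) or 4 (0.0608), and the day 7 call without withdrawal replicate 1 (0.0691) or day 7 replicate 2 (0.0701) or 3 (0.0506). With the arrays of the 2 groups alone neither passed (0.117 and 0.0893).

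Sostdc1, a secreted antagonist of WNT and BMP, was at 3.37, 2.74, 3.21 and 2.87 in control and 3.44, 4.04 and 3.94 at withdrawal. It rose by 0.76 ± 0.19, or 1.69-fold (adjusted p = 0.0361), and was lower again at day 7, by -0.80 ± 0.19 (adjusted p = 0.0463). The rise passed in 10 of 15 fits that left out 1 sample, and failed without withdrawal replicate 2 (0.16) or 3 (0.121) or control replicate 2 (0.0901), 3 (0.0511) or 4 (0.0931). It also failed with median centring (0.06), quantile normalization (0.0663), array weights (0.0576) and the arrays of the 2 groups alone (0.0947). The later fall passed in 5 of 15, with a highest adjusted p of 0.186 without withdrawal replicate 2, and failed with median centring (0.0574), quantile normalization (0.0589) and the 2 groups' arrays alone (0.07).

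**Figure D3:**
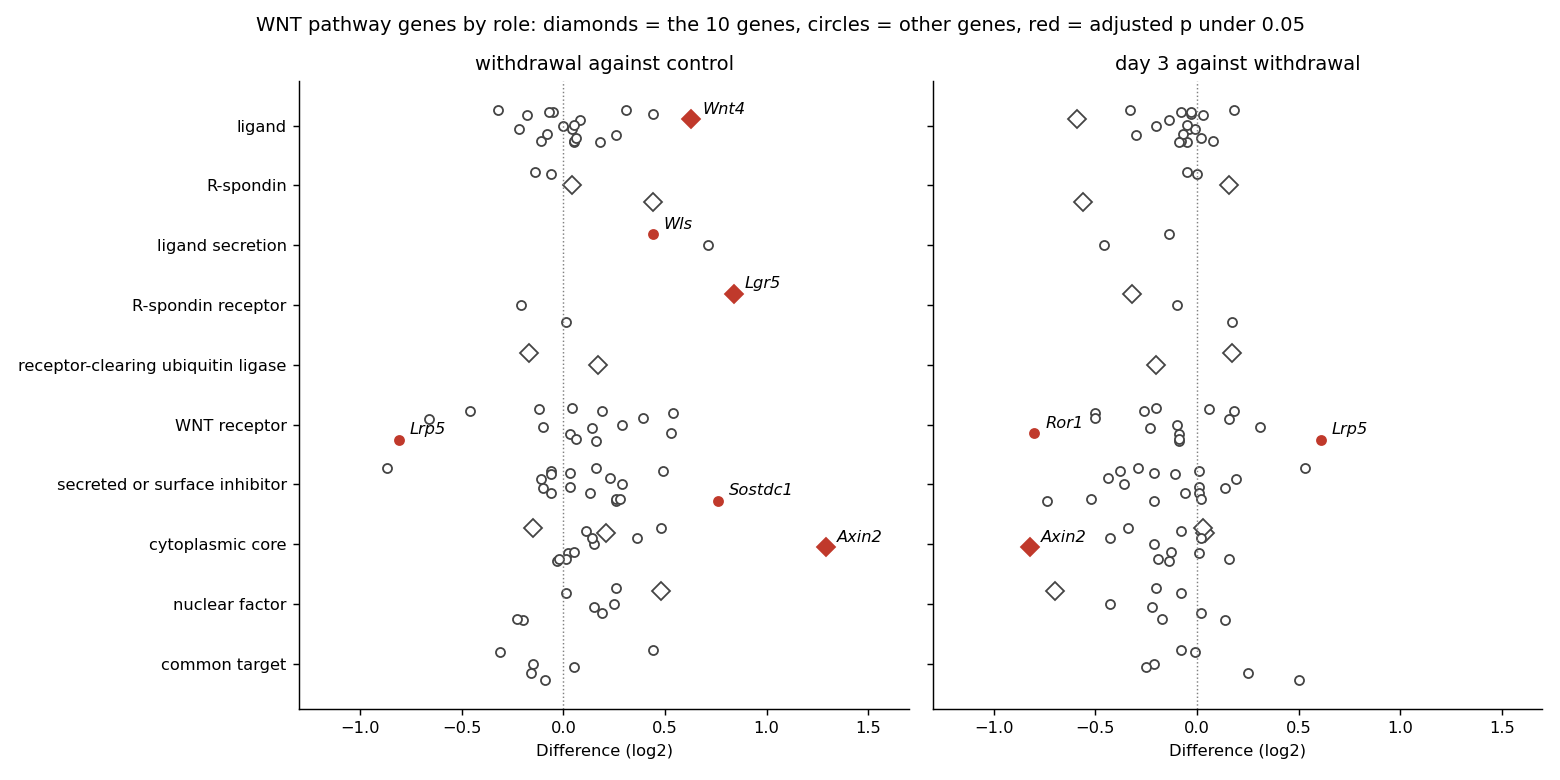
Difference in log2 RMA level (horizontal axis) of each measured WNT gene, arranged by role (vertical axis), for withdrawal against control and day 3 against withdrawal. Diamonds are the 10 genes, circles are other genes and red is an adjusted p under 0.05. At withdrawal against control the 19 ligands hold 1 called gene, Wnt4, and the 15 WNT receptors hold 1, Lrp5, which was lower. At day 3 against withdrawal the receptors hold 1 higher, Lrp5, and 1 lower, Ror1. Several roles hold few genes, such as ligand secretion, where 1 of 2 was called at withdrawal.

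By role, the calls at withdrawal were thinly spread, where 4.3% of all genes were called. Of 19 measured ligands 1 rose (Wnt4), and 4 ligands had a mean level of at least 2. Of 4 R-spondins, 2 of them at a mean level of at least 2, 0 passed. Of 3 R-spondin receptors, 2 of them at that level, 1 rose (Lgr5), and 0 of 2 ligases passed. In ligand secretion 1 of 2 rose (Wls), of 15 WNT receptors 1 fell (Lrp5), and of 17 secreted or surface inhibitors 1 rose (Sostdc1). In the cytoplasmic core 1 of 13 rose (Axin2), with a median of 0.11, and in the nuclear factors 0 of 8 passed, with a median of 0.17. Among 6 common targets not in the list of 10, 4 had a mean level of at least 2. Of the 6, 0 passed and the median was -0.12. The proliferation genes Ccnd1 and Myc, both of that list, differed by -0.31 ± 0.19 (adjusted p = 0.435) and 0.44 ± 0.21 (adjusted p = 0.303).

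A few markers of the outer layers of the gland were called in the same comparison, and most were not. The share called was 27.3% of the glomerulosa list and 8.33% of the capsule list. Over all genes, 2.49% were called higher and 1.81% lower, with a median difference of -0.01. The zona glomerulosa list (11 measured, Kcnj5 near the floor at 1.14 in control) had 3 genes higher and 0 lower at withdrawal with a median difference of 0.19, and its mean level lay at 6.89 to 6.94 in control samples and 7.14 to 7.35 at withdrawal. The 3 were Cyp11b2, the aldosterone synthase (0.90 ± 0.16, adjusted p = 0.0056), Hsd3b6, a steroid dehydrogenase (1.66 ± 0.32, 0.00899), and Vsnl1, a calcium sensor (0.72 ± 0.18, 0.0298). Cacna1h, a calcium channel, was at -0.51 ± 0.21 with no overlap and did not pass (0.213), and the angiotensin receptor gene Agtr1a was at -0.18 ± 0.18 (0.692). The capsule list (12 measured, Gli1, Gli2 and Wt1 below 2 in control) had 1 higher and 0 lower with a median of 0.34, and its mean lay at 5.07 to 5.22 in control and 5.34 to 5.55 at withdrawal. The 1 called was Gli2, a dim gene at 1.30 in control and 1.87 at withdrawal. At day 3 the means lay at 6.65 to 6.85 and 4.83 to 5.15, with 3 and 2 genes called lower than at withdrawal. These were 27.3% and 16.7% of the lists, beside 0.886% of all genes called lower.

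The medulla, which lies inside the cortex, is another source of RNA in a whole gland. For the lists below, the shares of all genes called at withdrawal were 2.49% higher and 1.81% lower, with a median difference of -0.01. Of 18 medulla markers measured, 6 rose and 0 fell at withdrawal, with a median difference of 0.50, and the mean of the list lay at 7.33 to 7.69 in control and 7.92 to 8.09 at withdrawal. The 9 zona fasciculata markers all fell, with a median of -1.08 and a list mean of 8.36 to 8.51 against 9.43 to 9.53. Macrophage markers rose in 11 of 15, with a median of 1.01 and a list mean of 6.46 to 6.93 against 5.06 to 5.24. Of the other lists, endothelium had 0 higher and 2 lower of 12, T cell 1 and 0 of 8, and Schwann cell (7), adipocyte (7) and kidney (7) lists had 0 called. A list with 0 called was not always flat. All 7 Schwann and glial markers had means above control, with a median of 0.61. Their list mean lay at 3.64 to 4.05 at withdrawal against 2.99 to 3.32. The adipocyte and kidney medians were 0.03 and -0.13. Of the 12 endothelial markers 0 had means above control, with a median of -0.37. The part of the fasciculata, macrophage and other changes in the WNT results was not tested.

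For the medulla, glomerulosa and capsule the differences were measured again with each array set relative to the mean of the list. This shifts all genes alike: their median difference at withdrawal became -0.50, -0.35 and -0.32, with 45%, 41.1% and 23.5% of all genes called lower and 0.672%, 1.12% and 1.06% called higher. Axin2 at withdrawal, on its brighter probe set, stayed above control relative to each: by 0.79 for the medulla (adjusted p = 0.0183), 0.94 for the glomerulosa (0.00352) and 0.98 for the capsule (0.000501). The second Axin2 probe set, which differed by a smaller 0.65 ± 0.18 on the deposited scale, was not measured on these scales. Lgr5 remained higher relative to the glomerulosa (0.50, adjusted p = 0.041) and the capsule (0.53, 0.031), but not to the medulla (0.34, 0.104). Wnt4 did not pass relative to any of them, at 0.13 (0.599), 0.28 (0.14) and 0.32 (0.146). Lrp5 was lower relative to all 3, by -1.31 (adjusted p = 0.000243), -1.16 (0.000219) and -1.12 (0.000157). Rspo3 lay within 0.13 of control on each of these scales. Wls, at -0.06, 0.09 and 0.13, and Sostdc1, at 0.26, 0.41 and 0.45, passed relative to none of the 3 lists, and Wls changed sign on the medulla scale.

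On these scales Znrf3 and Ctnnb1 were the members called lower at withdrawal, by -0.67, -0.52 and -0.48 for Znrf3 and by -0.65, -0.50 and -0.46 for Ctnnb1. These 2 of 10 are no larger a share than that of all genes called lower, so they are no result about these genes. The fall of Axin2 at day 3 kept its sign relative to all 3 lists, but passed relative to the capsule alone (-0.34, adjusted p = 0.0448), with -0.63 (0.275) for the medulla and -0.33 (0.124) for the glomerulosa. Its fall at day 7 passed relative to the glomerulosa (-0.91, 0.0154) and the capsule (-0.64, 0.00344) and not the medulla (-0.68, 0.0576). The fall of Lgr5 at day 7 passed relative to none of the 3, at -0.22 for the medulla (0.299), -0.45 for the glomerulosa (0.158) and -0.18 for the capsule (0.329). Its day 3 difference from withdrawal, not called on any of these scales, changed sign relative to the glomerulosa (0.17) and the capsule (0.15). The falls of Ror1 also did not pass, at -0.61, -0.31 and -0.33 for day 3 and -0.37, -0.60 and -0.33 for day 7.

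**Figure D4:**
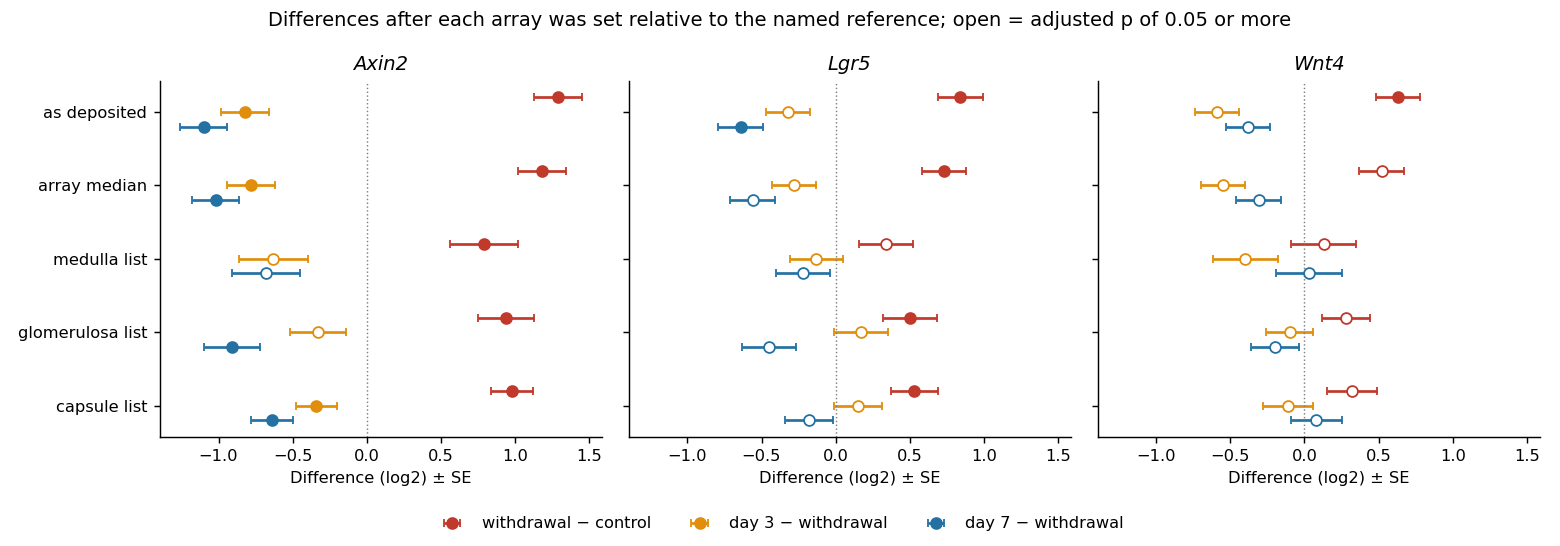
Difference in log2 level ± SE (horizontal axis) of Axin2, Lgr5 and Wnt4 in 3 comparisons, on the deposited scale and with each array set relative to its median or to a marker list (vertical axis), filled where the adjusted p was under 0.05. The withdrawal difference of Axin2, shown for its brighter probe set alone, stays filled on every scale, between 0.79 and 1.29. That of Wnt4 is filled on the deposited scale only.

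Genes with the most similar course were sought by the root mean square difference in mean-centred log2 level over the 15 arrays, among 17118 genes. The closest to Axin2 (SD over arrays 0.52) were Pltp, Cxcl16 and Gata3, each at 0.24, then Insyn2a and Gstt1 at 0.25. Pltp went from 5.53 in control to 6.97 at withdrawal, 5.97 at day 3 and 5.99 at day 7, and Gata3 from 4.98 to 6.07, 5.30 and 5.10. The closest to Lgr5 (SD 0.37) were Pcsk1n at 0.14 and Cyb561, Aplp1, Eya1 and Scg3 at 0.15. Scg3, a granin, had means of 7.19, 7.79, 7.61 and 7.23 in control, withdrawal, day 3 and day 7. Gata3, Cyb561 and Scg3 belong to the medulla list. The closest to Wnt4 (SD 0.30) were Ndrg1, Atp1b2 and Tmem51 at 0.15, then Ckb and Spryd7 at 0.17. These distances describe 15 shared arrays and carry no test.

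**Figure D5:**
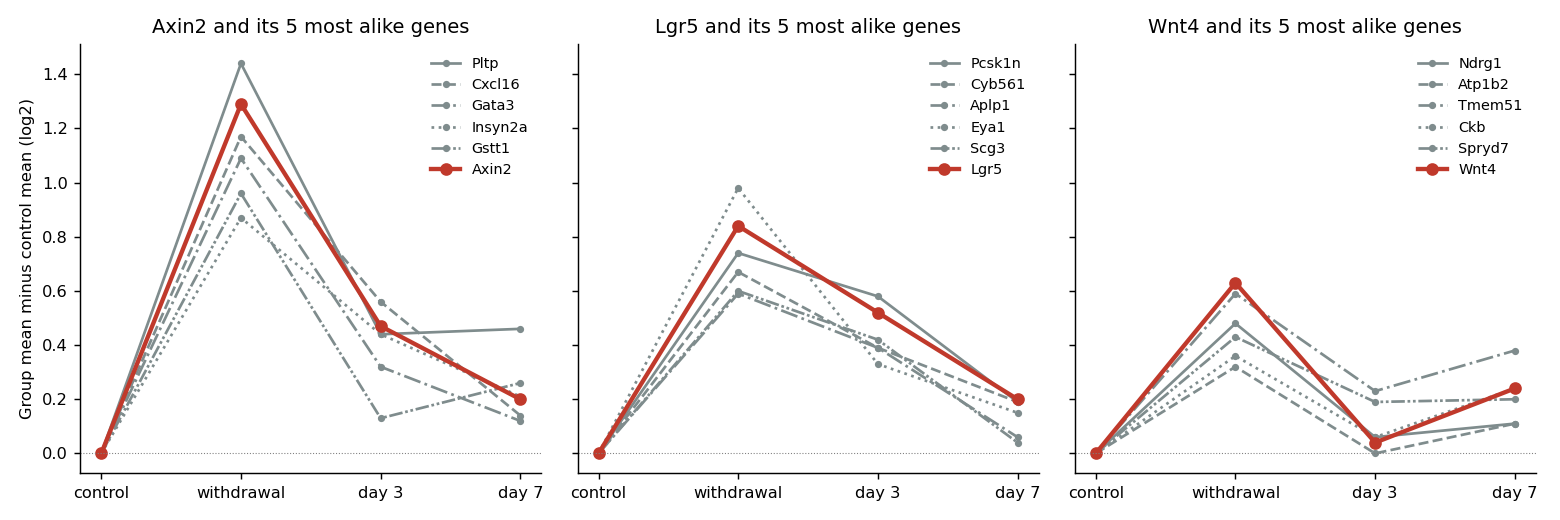
Group mean minus control mean (vertical axis, log2) in the 4 groups (horizontal axis) for Axin2, Lgr5 and Wnt4 (red) and the 5 genes most like each (grey). All lines are highest at withdrawal, and those of the Lgr5 panel are still above control at day 3, with Scg3 at 7.61 against 7.19.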

How the data were processed

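The authors deposited log2 values that come from RMA in oligo, per the submitters' processing notes. Software versions and the genome build are not given in the sources used. Column-purified RNA was labelled with the WT Pico kit, per the labels.

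The table has 32736 probe sets. Platform annotation gives 1 symbol to 22399, which were analysed, several to 1607 and none to 8730. RefSeq (GRCm38.p6) held the Entrez identifier of 22261 of the 22399. For the 807 genes with several probe sets, the one with the highest mean was kept, leaving 21439 genes.

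All 15 arrays entered 1 model of the 4 groups in limma 3.58.1 (R 4.3.3, statmod 1.5.0), with Benjamini-Hochberg adjustment over all genes in each comparison and a threshold of 0.05. Levels are mean ± SD and differences are log2 ± SE of the fit, computed before rounding. The script was tested on simulated data. The named genes are the 10 members, any other listed WNT gene that passed, and the 5 genes most like Axin2, Lgr5 and Wnt4, without predicted genes, clones and large receptor families. The members, the WNT lists and the marker lists were chosen with earlier results of these data known. The marker lists also covered endothelium, Schwann cells, T cells, adipocytes and kidney. Alternatives were other scalings, a filter on dim genes, other variance models, a replicate block, the 2 groups' arrays alone and leaving out each sample.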

Additional observations from a re-analysis of the deposited data

Results flagged for a closer look

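In 30 groups of 4 samples, 3 for each of the 10 genes, Dixon's test at its 95% critical value marked 5 values as far from the other samples of the group. Chance alone marks about 5% of groups if values are normally spread, and the share over all genes was not computed. Lgr5 at day 7 had a replicate 3 of 7.34, where the others lay between 6.77 and 6.86. Rspo1 had a control replicate 4 of 3.67, below the others at 3.87 to 3.88, and a day 3 replicate 4 of 4.52, above the others at 3.78 to 3.91. Lef1 had a day 3 replicate 3 of 5.39, above 4.72 to 4.82. Apc had a day 3 replicate 1 of 5.75, above 5.12 to 5.21. The 5 values come from 5 different arrays, and 3 of them are at day 3. Without day 7 replicate 3 the fall of Lgr5 at day 7 was -0.77, and it passed.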

How the results depend on the processing

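Of 2618 recomputed values, 2340 kept their sign and call (or, for counts, stayed close), and 97 that were called neither before nor after changed sign, 59 of them on a marker list scale. A further 94 lost and 39 gained a call, 4 reversed with a call on one side, and 44 counts moved. Sample numbers did not pair samples across groups (21 same-numbered pairs, correlations of -0.14 to 0.06, and 0 of the arrays correlated best with their own number). With the replicate block, these calls did not pass: Wnt4 (0.60, adjusted p = 0.0783), Wls (0.0513) and Sostdc1 (0.0672) at withdrawal, Lrp5 at day 3 (0.0836), and Lgr5 (-0.64, 0.105) and Sostdc1 (0.0863) at day 7. This left 1 of the 10 genes lower at day 7 than at withdrawal and 1 passing the F test, beside 0.41% and 1.3% of all genes. Scaling on the capsule list was chosen after seeing the data. Higher genes at withdrawal against control numbered 1 of the 10 on the medulla scale, beside 0.672% of all genes. Lower genes numbered 2 on the medulla, glomerulosa and capsule scales alike, where 45%, 41.1% and 23.5% of all genes were lower. Day 3 against withdrawal gave 2 lower with quantile normalization (0.896% of all genes) and with the filter at a mean of 2 (2.27% of the genes kept). It also gave 2 lower with trended robust variance (1.07% of all genes) and array weights (0.928%). It gave 0 lower on the medulla (0.131%) and glomerulosa (0.261%) scales and with the 2 groups' arrays alone. The glomerulosa and capsule scales gave 4 higher there, beside 69.8% and 64.4% of all genes. Day 7 against withdrawal gave 1 lower with array median centring (0.625% of all genes) and on the glomerulosa (0.229%) and capsule (0.331%) scales. It also gave 1 lower with the 2 groups' arrays alone, and 0 lower on the medulla scale (0.187%). Higher genes there numbered 1 and 3 on the medulla and capsule scales, beside 9.05% and 63.3% of all genes. Day 3 against control gave 2 higher on the capsule scale (0.746% of all genes), and day 7 against day 3 gave 3 lower on the glomerulosa scale (25.8%). The F test passed 0 of the 10 genes on the medulla scale, where 8.69% of all genes passed. It passed 5 of the 10 on the glomerulosa and capsule scales, where 57.1% and 54% of all genes passed. Leaving out 1 sample gave 2 to 3 higher at withdrawal, 0 to 2 lower at day 3 against withdrawal, 1 to 2 lower at day 7 against withdrawal, 1 to 2 in the F test, and 0 for every other count of the 10 genes. Of all genes, these fits called 1.13% to 2.6% higher at withdrawal. They called 0.368% to 0.905% lower at day 3 and 0.35% to 1.05% lower at day 7 against withdrawal, and 1.14% to 2.63% in the F test. For the 2 groups' arrays alone the share of all genes was not computed. Values that changed sign with a call on one side were Wls at withdrawal on the medulla scale (-0.06), Wls at day 3 against withdrawal on the glomerulosa (0.35) and capsule (0.34) scales, and Rnf43 at day 7 against withdrawal on the capsule scale (0.43). The cause of the differences between variance models was not tested; a list's own shift is built into its scale. Centring each array on its median took the all-gene median at withdrawal from -0.01 to -0.12 and the calls from 534 higher and 387 lower to 341 and 853 (quantile normalization, 421 and 462). Axin2 was then 1.18 and Lgr5 0.73, both still called, and Wnt4 was 0.52 (adjusted p = 0.0569). The levels of Znrf3 and Rnf43 lay not far above the median of all genes, and whether signal limits their results was not tested.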

Other observations

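Some WNT genes outside the list of 10 that did not pass at withdrawal are described here, and were chosen after their values were seen. Porcn, the enzyme that attaches the lipid WNT ligands need for secretion, was at 4.48 ± 0.17 (SD, n = 4) in control and 5.19 ± 0.31 (n = 3) at withdrawal, a difference of 0.71 ± 0.20 (limma, adjusted p = 0.0584). The groups did not overlap. Fzd8, a frizzled receptor, was at 4.44 ± 0.35 and 3.78 ± 0.25, a difference of -0.66 ± 0.19 (adjusted p = 0.0644). Lgr4, the broadly expressed R-spondin receptor, was at 7.61 ± 0.11 and 7.39 ± 0.07. Its lowest control sample and highest withdrawal sample both read 7.44 after rounding, whereas Lgr5 was clearly above control at withdrawal. The Lgr4 difference of -0.21 ± 0.11 did not pass (adjusted p = 0.327). Nkd1, an inhibitor that WNT signalling itself switches on, differed by 0.48 ± 0.22 (adjusted p = 0.28). Frzb, a secreted WNT binder, had a control level of 4.31 ± 0.32 and a withdrawal level of 3.44 ± 0.08, a difference of -0.87 ± 0.43 (adjusted p = 0.331). It then averaged 3.97 ± 1.16 on day 3, with samples from 2.56 to 4.93, and 2.75 ± 0.31 at the last time.

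Other ligands that were measured above the floor showed no called difference at withdrawal. Wnt2b was at 5.40 ± 0.16 in control and 5.70 ± 0.30 at withdrawal, a difference of 0.31 ± 0.24 (adjusted p = 0.58). Wnt5a differed by -0.11 ± 0.16 (adjusted p = 0.818), and Ror1, which binds its product, is described above.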
